A study of Mus musculus with 57 samples.

Results

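Open chromatin of wild-type mouse embryos was compared between embryonic day 6.0 (E6.0) and embryonic day 7.2 (E7.2), with 2 ATAC-seq libraries at each day. ATAC-seq inserts sequencing adapters into accessible DNA and so lists open regions of the genome. A region was called stage-specific when both libraries of one day listed it and neither library of the other day did. Of 94512 merged regions, 5599 (5.92%) were E6.0-specific and 1106 (1.17%) were E7.2-specific. When each list was limited to its strongest 33881 regions, the length of the shortest list, 50229 merged regions remained, of which 2681 (5.34%) were E6.0-specific and 2015 (4.01%) were E7.2-specific.

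These 4 libraries belong to a series of 57 samples on chromatin in embryos and in epiblast stem cells (EpiSCs). EpiSCs are cultured cells that resemble the epiblast of the embryo. The embryos carried no mutation and received no treatment. The labels give neither the number of embryos in a library, nor their litters, nor whether extraembryonic tissue was removed. The spread between libraries of a day may therefore be technical, and fewer cells of a type cannot be told apart from less open chromatin per cell. Lists that had no part in choosing the regions were set beside them. They were 1 ATAC-seq library of the posterior part of wild-type E7.5 embryos, and 1 library each of wild-type EpiSCs kept with the Wnt secretion inhibitor IWP2 (2 µM, called 0 h) and of wild-type EpiSCs given CHIR99021 (3 µM) for 48 h. CHIR99021 inhibits the kinase GSK3 and thereby turns on Wnt target genes. Further lists were H3K4me3, a mark of promoters, in unstimulated EpiSCs without Wnt3, and H3K27ac in wild-type EpiSCs after 24 h of CHIR99021 (2 libraries). H3K27ac is found at enhancers and promoters in use. Lists of H3K27me3 and Ring1b, marks of Polycomb repression, came from unstimulated EpiSCs without Wnt3.

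Between these days the mouse embryo begins gastrulation. Cells of the pluripotent epiblast, which is marked by transcription factors such as Oct4 (gene Pou5f1), Sox2 and Otx2, pass through the primitive streak at the posterior side and become mesoderm and endoderm. Wnt3 and Nodal signals drive the streak, where genes such as T (Brachyury), Eomes and Mixl1 are switched on, and Wnt3a and the Cdx and Hox genes then act in the posterior body. Promoters of many genes stay open in most cells, whereas distal regulatory elements tend to be open in fewer cell types.

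The 4 lists differed in length, and the spread was wide at E7.2. The E6.0 libraries listed 57569 and 61933 regions, and the E7.2 libraries listed 33881 (replicate 1) and 72433 (replicate 2). The stages therefore overlapped in list length (exact two-sided permutation p = 1, where 0.333 is the smallest p that 2 against 2 libraries allow). The median region was 417 and 401 bp long at E6.0, and 367 and 334 bp at E7.2. That difference of -58.5 bp (SD 11.3 bp at E6.0 and 23.3 bp at E7.2, n = 2 each) left no overlap between the days and had the smallest possible exact permutation p of 0.333. Cut to equal length, the lists had overlapping medians, of 637 and 676 bp against 367 and 639 bp (difference -153.5 bp, exact permutation p = 0.667), and replicate 1 of E7.2 stood apart. Reads per region were not recorded in the lists. Sequencing depth is therefore unknown, and a region missing from a list may be open below what that library could detect. Names inside the peak lists also give other stages than the labels do (E65 and embryo63 for the E6.0 libraries, E75young and embryo73 for the E7.2 libraries), and the labels were followed.

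The libraries that chose the members divided the regions unevenly. Listed in all 4 libraries were 27157 regions, or 28.7% of the total. The largest other class was 19481 regions of E7.2 replicate 2 alone, against 552 of E7.2 replicate 1 alone. E6.0 replicate 1 alone listed 7017 regions and E6.0 replicate 2 alone 10519. A further 10928 regions were missing only from E7.2 replicate 1, so they counted as neither shared by all nor stage-specific. At equal length the regions of 1 library only were closer in number, 3808 and 3985 at E6.0 and 3020 and 4477 at E7.2. The excess of E6.0-specific over E7.2-specific regions narrowed there as well, from 5599 against 1106 to 2681 against 2015. The count at E7.2 rested on replicate 1: without it, 20602 regions were in E7.2 replicate 2 and in neither E6.0 library. Without E7.2 replicate 2, 16565 regions counted as E6.0-specific.

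**Figure D1:**
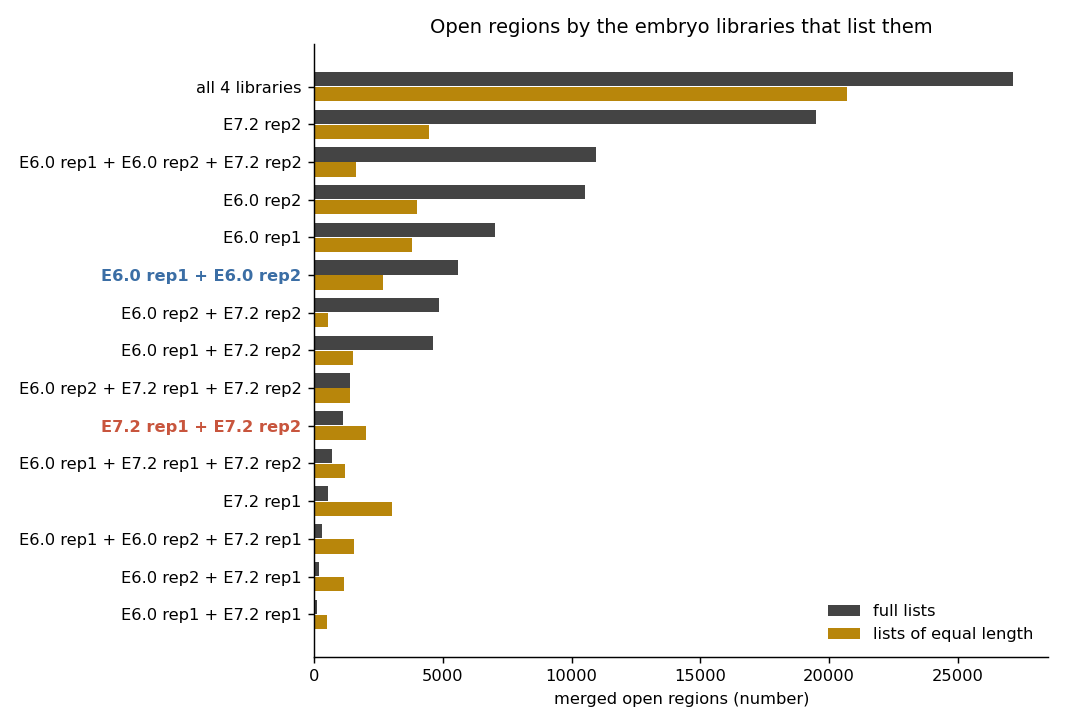
Number of merged open regions (x axis) for each combination of embryo libraries that lists them (y axis), with full lists in dark bars and lists of equal length in yellow bars. The combinations in blue and red letters are the E6.0-specific regions (5599 full, 2681 equal) and the E7.2-specific regions (1106 full, 2015 equal); regions in all 4 libraries are the largest class under both settings.

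Stage-specific regions ranked lower than shared regions in the lists that chose them. A region near the end of a list is more easily missing from another, so the rule itself favours low ranks. Each region took the rank of its strongest peak in a list, which favours the longer shared regions. The ranks are therefore a description and no support for a stage difference. Ranked by the authors' −log10 p, with 0% the strongest, the median E6.0-specific region stood at 70.6% of the list in replicate 1 and at 66.7% in replicate 2. The median E7.2-specific region stood at 84.8% in replicate 1, near the end of that shorter list, and at 48.8%, the middle of the list, in replicate 2. Regions of all 4 libraries had median ranks of 24.6% and 22.8% in the E6.0 libraries and of 41.3% and 19.5% in the E7.2 libraries. In the authors' fold enrichment over local background, the median was 5.69 and 4.96 for E6.0-specific regions and 3.94 and 5.58 for E7.2-specific regions. Only 1 and 7 E6.0-specific regions were among the strongest 10% of the replicate 1 and 2 lists, and 6 and 4 E7.2-specific regions were in theirs.

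**Figure D2:**
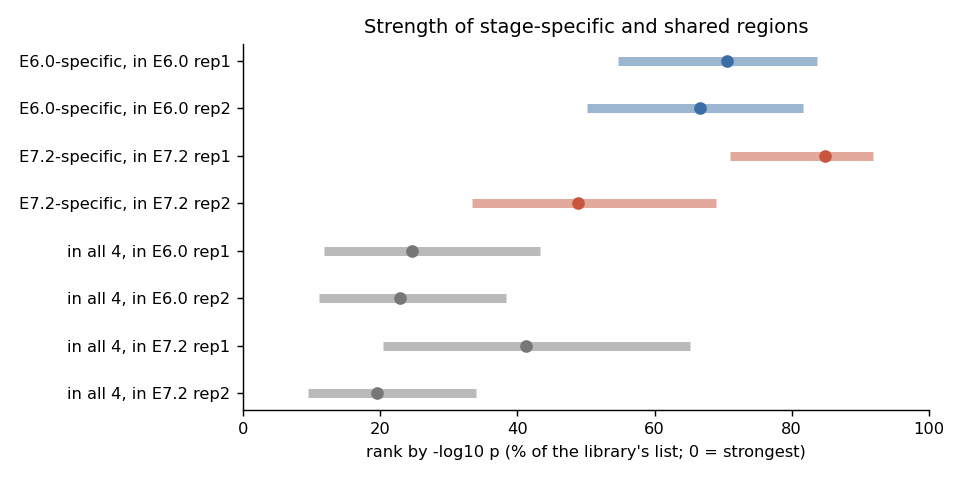
Rank of a region by −log10 p as a percent of its library's list (x axis, 0 is the strongest) for E6.0-specific (blue), E7.2-specific (red) and shared regions (grey) in each library; the point is the median and the bar spans the quartiles. The medians of stage-specific regions, 48.8% to 84.8%, all lie beyond those of shared regions, 19.5% to 41.3%. The ranks come from the lists that chose the regions.

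Regions of both classes lay mostly away from promoters. Of the E6.0-specific regions, 109 (1.95%, 95% Wilson interval 1.62% to 2.34%) overlapped an H3K4me3 region of EpiSCs, and of the E7.2-specific regions 10 did (0.904%, 0.492% to 1.66%). Among regions of all 4 libraries the share was 51.2%, and over all merged regions 16.7%. Low shares were not particular to the 2 classes. Regions of 1 library only had 0.725% to 2.20%, and regions of 1 library of each day 1.04% to 4.88%. At equal length the shares were 3.77% (3.11% to 4.56%) for E6.0 and 4.86% (4.01% to 5.89%) for E7.2, so that the order of the stages turned round while both stayed far below the 62.0% of shared regions. The intervals cover counting error only. Distal position showed in distance too: the median E6.0-specific region was 49.9 kb from the nearest H3K4me3 region and the median E7.2-specific region 62.5 kb. Within 10 kb of H3K4me3 lay 20.4% of E6.0-specific and 14.4% of E7.2-specific regions, against 60.8% of shared ones. Both classes were short, with medians of 375 and 362 bp against 905 bp for regions of all 4 libraries. A merged region spans the peaks of every list that holds it. Median lengths were 177 to 231 bp for regions of 1 library and 422 to 474 bp for regions of 3. Overlap shares were not adjusted for length.

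The classes differed most in the E7.5 posterior library, among the lists compared here. It listed 486 of the E7.2-specific regions (43.9%, 41.0% to 46.9%) and 171 of the E6.0-specific regions (3.05%, 2.63% to 3.54%). The shares of regions in all 4 libraries and of all merged regions were 77.1% and 33.4%. At equal length the values were 58.5% (56.3% to 60.6%) for E7.2-specific and 10.1% (8.99% to 11.3%) for E6.0-specific regions, against 52.5% of all merged regions. The high share was not particular to the E7.2-specific class. Regions of both E7.2 libraries and E6.0 replicate 1 had 38.6% at full and 58.6% at equal length. Those with E6.0 replicate 2 instead had 38.8% and 58.8%. The E7.2-specific share was above the E6.0-specific one under each of the 9 alternatives tried, by 14.6 to 48.8 percentage points. The lower end of that range was reached without E7.2 replicate 2, where 32.4% of E7.2-specific and 17.8% of E6.0-specific regions were listed.

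The EpiSC lists at 0 h and 48 h differed. Before stimulation, 18.1% of E6.0-specific regions (17.1% to 19.1%) and 18.3% of E7.2-specific regions (16.1% to 20.6%) were open in EpiSCs, shares that differed by less than their intervals. After 48 h of CHIR99021 the shares were 6.54% (5.92% to 7.21%) and 39.6% (36.8% to 42.5%). Over all merged regions the shares were 37.1% at 0 h and 33.4% at 48 h, so both classes lay below that background at 0 h, and at 48 h the E7.2-specific share lay above it and the E6.0-specific share below. Regions of both E7.2 libraries and E6.0 replicate 2 had a higher 48 h share than the E7.2-specific class, 45.3%. Those with E6.0 replicate 1 instead had 25.8%. At equal length these 2 sets had 62.7% and 44.6% at 48 h. With lists of equal length, the E6.0-specific and E7.2-specific shares were 34.8% and 32.3% at 0 h (all merged regions 56.8%), and 15.7% and 49.1% at 48 h (51.5%), so both classes lay below the background at both times. The difference at 48 h had the same direction under each of the 9 alternatives (7.83 to 37.1 percentage points), whereas the E7.2-specific share at 0 h was the higher one under only 6 of the 9. Without E7.2 replicate 2, 36.1% of E6.0-specific and 14.8% of E7.2-specific regions were listed at 0 h. There was 1 EpiSC library at each time, so these shares have no replicate error. By their peak names, the 0 h list came from the first processing folder of the submitters and the 48 h list from the second. Time and folder therefore cannot be told apart.

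Crossing the EpiSC lists showed what the shares are made of. Among E6.0-specific regions, 739 (13.2%) were listed in EpiSCs at 0 h and not at 48 h, and 93 (1.66%) at 48 h and not at 0 h. Among E7.2-specific regions the order was reversed, with 49 (4.43%) at 0 h only and 285 (25.8%) at 48 h only. Of those 285 regions, 192 (67.4%, 61.7% to 72.5%) were also listed in the E7.5 posterior library. Of the 153 E7.2-specific regions in both EpiSC lists, 95 were (62.1%, 54.2% to 69.4%), so the intervals overlapped. For the 49 regions at 0 h only the number was 15 (30.6%, 19.5% to 44.5%). Of the 619 E7.2-specific regions in neither EpiSC list, 184 (29.7%, 26.3% to 33.4%) were listed at E7.5 posterior. At equal length the shares were 81.8% (48 h only), 73.5% (both), 33.1% (0 h only) and 41.3% (neither). A large remainder was seen in none of the 3 other ATAC-seq lists: 4392 E6.0-specific regions (78.4%) and 435 E7.2-specific regions (39.3%), against 9.57% of shared regions. Its size depended on list length: at equal length it was 59.3% and 26.0%, against 4.25% of shared regions.

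H3K27ac in stimulated EpiSCs followed the same order in both of its libraries. In replicates 1 and 2 it covered 16.9% and 15.2% of E7.2-specific regions, and 4.72% and 4.36% of E6.0-specific regions. At 0 h, in 1 library of wild-type EpiSCs, it covered 0.633% (0.307% to 1.30%) of E7.2-specific and 2.88% (2.47% to 3.35%) of E6.0-specific regions. Shared regions had 56.5% and 55.0% after 24 h and 31.9% at 0 h, and all merged regions 21.9%, 20.9% and 10.8%, so both classes lay below that background. Regions of both E7.2 libraries and E6.0 replicate 2 had higher 24 h shares than the E7.2-specific class, 26.0% and 25.6%. Those with E6.0 replicate 1 instead had 9.87% and 10.6%. In lists of equal length, the 24 h shares were 24.8% and 23.3% of E7.2-specific and 7.16% and 6.56% of E6.0-specific regions (all merged regions 35.3% and 34.0%). The 0 h shares were then 3.57% and 5.56% (18.9%). The Polycomb marks H3K27me3 and Ring1b, in EpiSCs without Wnt3 at 0 h, covered at most 1.64% of either class at full length. Over all merged regions the shares were 2.24% and 3.25% for H3K27me3 and 1.34% and 1.35% for Ring1b. At equal length they covered at most 1.74% of either class, against 1.88% to 4.64% of all merged regions. Regions of the 2 input libraries, which have no antibody, overlapped 0.814% and 0.723% of E7.2-specific regions and 0.0179% and 0.0536% of E6.0-specific ones. Over all merged regions the shares were 0.163% and 0.283%, below the E7.2-specific and above the E6.0-specific ones. The part of such regions in the results was not tested.

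**Figure D3:**
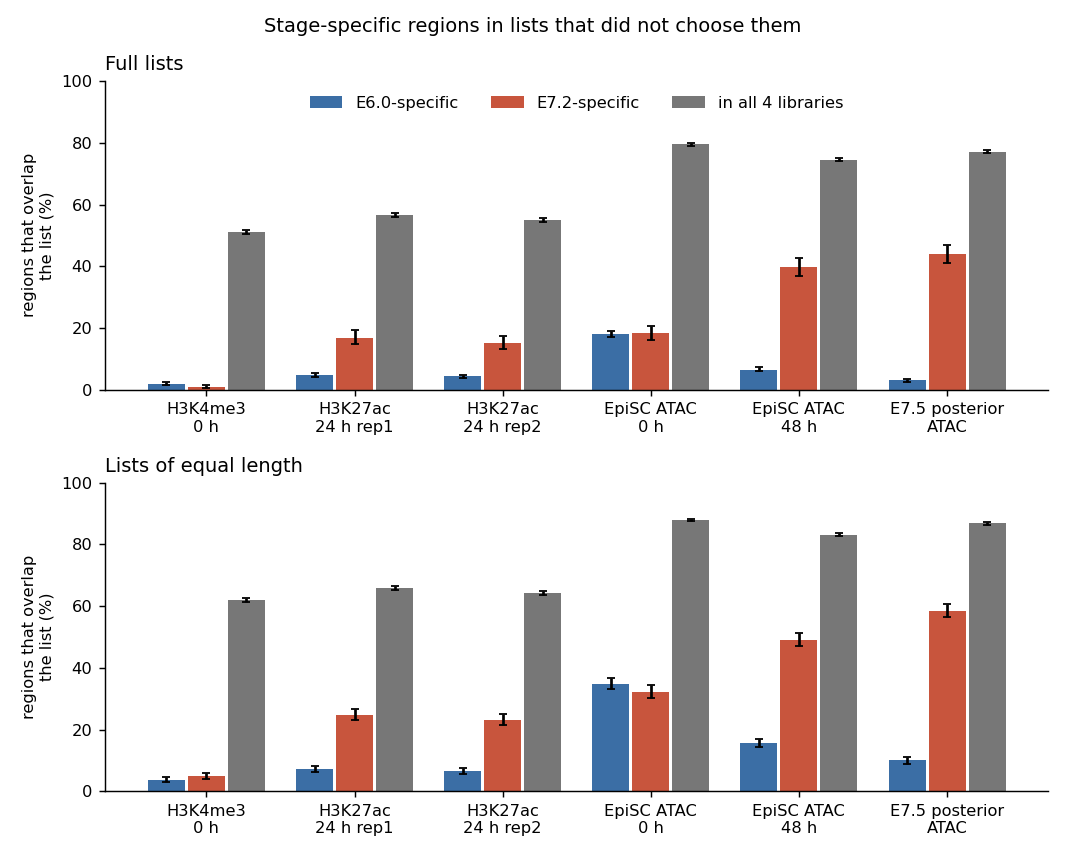
Share of E6.0-specific (blue), E7.2-specific (red) and shared regions (grey) that overlap each list on the x axis, in percent, for full lists (top) and lists of equal length (bottom); error bars are 95% Wilson intervals, which cover counting error only. E7.2-specific regions reach 39.6% in EpiSCs at 48 h and 43.9% in the E7.5 posterior library at full length, and E6.0-specific regions 6.54% and 3.05%, while at 0 h both lie near 18%.

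Since the shares above pool the libraries of a day, they were also taken library by library from regions outside both classes, those listed in 1 embryo library only. Like the classes, these regions were chosen by their absence from both lists of the other day. Their shares are therefore not independent of the stage rule. Of such regions, the E7.5 posterior library listed 4.10% and 2.26% for the E6.0 libraries, and 9.78% and 20.7% for the E7.2 libraries. Each E7.2 library lay above both E6.0 libraries. The means were 3.18% ± 1.30 and 15.2% ± 7.70 (SD, n = 2 each; exact permutation p = 0.333, the smallest possible, and 0.778 after Benjamini-Hochberg adjustment over 14 measures). For EpiSCs at 48 h the values were 4.69% and 6.12% at E6.0 and 11.1% and 16.9% at E7.2, again without overlap (p = 0.333 by the exact permutation test, 0.778 adjusted). For EpiSCs at 0 h the days overlapped, with 8.29% and 11.9% at E6.0 and 8.33% and 10.7% at E7.2. At equal length the E7.5 posterior shares were 14.9% and 7.75% against 23.3% and 32.4%, and the 48 h shares 17.4% and 14.6% against 28.5% and 25.4%. The 0 h shares no longer overlapped there and had the opposite direction, with 27.3% and 28.9% at E6.0 against 25.7% and 18.8% at E7.2 (exact permutation p = 0.333, 0.778 adjusted). With 2 libraries a day, no such difference can pass a threshold of 0.05.

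**Figure D4:**
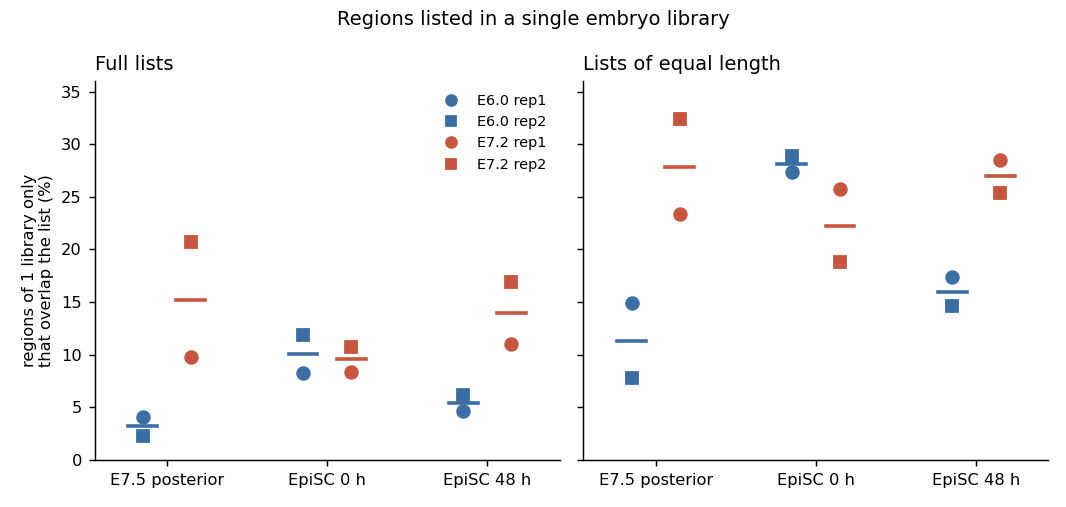
Share of the regions of 1 embryo library only that overlap the E7.5 posterior, EpiSC 0 h and EpiSC 48 h lists (y axis, percent), for full lists (left) and lists of equal length (right); circles are replicate 1, squares replicate 2, and lines the mean of 2 libraries. Both E7.2 libraries (red) lie above both E6.0 libraries (blue) for E7.5 posterior and EpiSC 48 h in both panels; for EpiSC 0 h the days overlap on the left, and both E7.2 libraries lie below on the right.

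Peak names placed replicate 1 of both days in one processing folder of the submitters and replicate 2 of both days in another, so the comparison could be made within each. In the first folder, which also held the E7.5 posterior list, the E7.2 library had 3494 regions that the E6.0 library lacked, and 33.1% of them were listed at E7.5 posterior; of the 29026 regions for the reverse case, 14.5% were. In the second folder the shares were 21.6% of 26226 and 2.86% of 16943 regions. For EpiSCs at 48 h, whose list came from the second folder, the shares were 35.7% and 17.1% in the first folder and 17.8% and 6.64% in the second. The order of the stages was the same in both folders. These sets hold the stage-specific regions themselves and were chosen by absence from the other day's list. They are therefore no independent check. At equal length the E7.5 posterior shares were 39.4% for E7.2 against 21.2% for E6.0 in the first folder. In the second they were 41.5% against 14.4%. Over all regions of a list, by contrast, the days overlapped: E7.5 posterior listed 44.5% and 41.6% of the E6.0 regions, and 70.1% and 43.2% of the E7.2 regions, with the high value in the shortest list. Cut to equal length, the values were 63.4% and 62.5% at E6.0 and 70.1% and 70.2% at E7.2.

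Along the genome, more tiles held E6.0-specific than E7.2-specific regions, in the order of their numbers. In tiles of 1 Mb (mm9), 2561 tiles held any region, 2116 of them (82.6%) held an E6.0-specific one and 791 (30.9%) an E7.2-specific one. E6.0-specific regions outnumbered E7.2-specific ones in 1889 tiles and were outnumbered in 168. At equal length 1514 tiles (59.8%) held an E6.0-specific and 1186 (46.9%) an E7.2-specific region, and the split was 1030 against 625. The tile richest in E6.0-specific regions was chromosome 7 from 25 to 26 Mb, with 14 and no E7.2-specific one, beside 33 regions of all 4 libraries. Next came chromosome 18 from 37 to 38 Mb with 12, chromosome 5 from 148 to 149 Mb with 11, and chromosome 10 from 80 to 81 Mb and chromosome 11 from 88 to 89 Mb with 10 each, which are 2 of 4 tiles tied at that excess, all without an E7.2-specific region. For E7.2 the leading tile was chromosome 18 from 10 to 11 Mb, with 5 and no E6.0-specific region, followed by chromosome 18 from 84 to 85 Mb with 5 against 1. Chromosome 4 from 145 to 146 Mb held 10 against 7, and chromosome 1 from 62 to 63 Mb and chromosome 14 from 22 to 23 Mb held 4 against 1 each, which makes 3 of 11 tiles tied at an excess of 3. Of these 10 tiles, chromosome 18 from 10 to 11 Mb was also among the leading ones at equal length, with 6 against 1. On the X chromosome lay 2.86% of E6.0-specific, 1.45% of E7.2-specific and 2.50% of shared regions.

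Among stage-specific regions that overlapped no input region, the strongest by mean rank were described singly. At E6.0 the leading region was chr6:129299609-129300348 (mm9), 740 bp long, with 19.5-fold and 15.3-fold enrichment in replicates 1 and 2, and no other ATAC-seq list held it. The next 2, chr6:51715942-51716982 (14.1-fold and 20.0-fold) and chr13:8961173-8962394 (14.5-fold and 17.8-fold), were also open in EpiSCs at 0 h and carried H3K27ac there, and were in neither the 48 h nor the E7.5 posterior list. The remaining 2 of the 5, chr1:138603896-138604377 and chr2:118735511-118736158, were in none of those lists. At E7.2 the leading 3 such regions were 133, 137 and 134 bp long. The first, chr13:113368385-113368517, had 53.7-fold and 56.8-fold enrichment and was listed in EpiSCs at both times. The second, chr2:73705957-73706093, had 17.2-fold and 15.7-fold enrichment and was listed in EpiSCs at 48 h, and the third, on chromosome 18 from 14261777 to 14261910, in no other ATAC-seq list. The other 2, chr10:57691044-57691332 and chr6:54055158-54056056, were longer and were open in EpiSCs at both times. None of these 5 was in the E7.5 posterior list, unlike 43.9% of their class. Regions shorter than 150 bp numbered 21 among the E7.2-specific and 0 among the E6.0-specific ones, and 5 of the 6 E7.2-specific regions in the strongest 20% of both lists were that short. Of those 6, 3 overlapped an input region, against 0 of the 6 E6.0-specific regions that ranked so high, and over the whole classes 10 and 3 regions did.

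Most marker genes of the tissues present at these days had a start listed as open in all 4 libraries. Gene starts were placed in mm9 for 36 of 39 marker genes, and all values here concern open chromatin and not expression. A start counted as listed when a list held a region in its start window. That window ran 1 kb beyond the H3K4me3 region at the start, or 2 kb where there was none. A listed start therefore need not itself be covered by an open region. The start was listed in all 4 embryo libraries for 7 of 8 epiblast genes, 12 of 15 streak and mesoderm genes, 3 of 5 genes of the extraembryonic ectoderm, 4 of 6 of the visceral endoderm and both housekeeping genes (Actb and Gapdh). The share over all gene starts is not given here, so these counts show nothing particular to marker genes. T, Eomes, Mixl1, Gsc, Wnt3, Fgf8, Mesp1, Sp5, Axin2, Cdx2, Evx1 and Lhx1 of the streak list had an open region in the start window at E6.0 as at E7.2. Nodal, a TGF-beta family signal, and Tbx6, a regulator of paraxial mesoderm, were missing only from E7.2 replicate 1. Msgn1, which acts with Tbx6, was missing from E6.0 replicate 2 and from EpiSCs at 0 h. The starts of Pou5f1 and Nanog, core genes of pluripotency, were listed in all 4 embryo libraries and in EpiSCs at 0 h, and in neither the E7.5 posterior library nor EpiSCs at 48 h. Of the extraembryonic ectoderm, the start of Elf5 was listed in E6.0 replicate 2 and the E7.5 posterior library alone, and that of Esrrb in no embryo library. Of the visceral endoderm, Afp, the fetal serum protein alpha-fetoprotein, was listed in E7.2 replicate 2 alone, and Hnf4a in E6.0 replicate 1 and E7.2 replicate 2.

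Within 50 kb of the 36 starts lay 428 merged regions, of which 26 were E6.0-specific and 3 E7.2-specific. Around the 8 epiblast genes 9 of 108 regions were E6.0-specific (8.33%, against 5.92% of all merged regions) and 1 was E7.2-specific (0.926%, against 1.17%). Around the 15 streak genes the numbers were 9 of 184 (4.89%) and 2 (1.09%). These shares lie near those of all regions, so the counts show nothing particular to the marker genes. By group, the extraembryonic ectoderm genes had 5 E6.0-specific regions of 48, the visceral endoderm genes 2 of 65 and the housekeeping genes 1 of 23, with no E7.2-specific region in any of these groups.

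Distances run from the gene start to the middle of the region, where above means toward higher mm9 coordinates and below toward lower ones, whatever the strand of the gene. Starts were moved to the best fit of the placement scan, by 3250 bp for Pou3f1, so these distances are approximate. Among epiblast genes, Pou5f1 and Sox2, a partner of Oct4, each had 2 E6.0-specific regions. The region 4.13 kb above the Sox2 start, chr3:34552688-34553082, had 5.41-fold and 5.61-fold enrichment, was open in EpiSCs at 0 h and not at 48 h, and carried H3K27ac in all 3 wild-type EpiSC libraries. Dnmt3b, a DNA methyltransferase of the epiblast, had 3, of which chr2:153468292-153469193, 6.51 kb below the start with 4.02-fold and 7.92-fold enrichment, was likewise open in EpiSCs at 0 h only. Pou3f1 (Oct6) had 2, and the one 14.3 kb below its start, with 7.58-fold and 7.33-fold enrichment, was open in EpiSCs at 0 h only as well. None of the 9 E6.0-specific regions near epiblast genes was in the EpiSC 48 h or E7.5 posterior list, which hold 6.54% and 3.05% of all E6.0-specific regions, so that 0 of 9 shows nothing particular to these genes. Nanog had the E7.2-specific region of the group, 34.5 kb below its start, in no other ATAC-seq list.

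**Figure D5:**
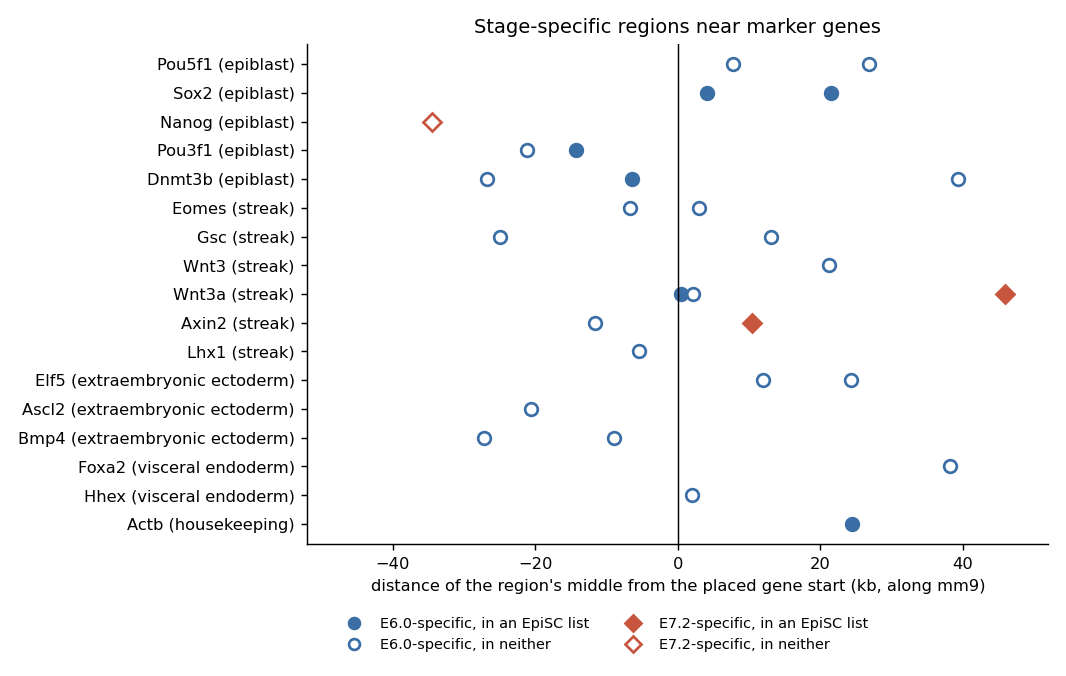
Distance in kb from the placed gene start to the middle of each E6.0-specific (blue circles) and E7.2-specific (red diamonds) region within 50 kb, for the marker genes that have one; filled symbols are also listed in EpiSCs at 0 h or 48 h. The plot holds 26 E6.0-specific and 3 E7.2-specific regions, and 1 of them covers a placed start, at Wnt3a.

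Among streak genes, Axin2, a feedback inhibitor and direct target of Wnt signalling, had an E7.2-specific region 10.4 kb above its start, chr11:108791991-108792257, with 3.60-fold and 4.26-fold enrichment, listed in EpiSCs at 0 h and 48 h and not at E7.5 posterior. It also had an E6.0-specific region 11.7 kb below the start. At equal length no E7.2-specific region was left within 20 kb of Axin2, and 2 lay within 50 kb. Eomes, a T-box factor needed for mesoderm and endoderm, had 2 E6.0-specific regions, 6.68 kb below and 2.94 kb above its start, in no other ATAC-seq list. Gsc, a factor of the anterior streak, had 2 as well, and Wnt3 and Lhx1 had 1 each.

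Wnt3a, the signal of the later streak and tail bud, had 2 E6.0-specific regions and 1 E7.2-specific region, 45.9 kb above its start. One of the E6.0-specific regions, chr11:59103936-59104833 (mm9), covered the start as placed, which is approximate, with 5.44-fold and 4.49-fold enrichment. It was listed in EpiSCs at 48 h and in neither EpiSCs at 0 h nor the E7.5 posterior library. E7.2 replicate 2 listed another region within the start window, which runs 1 kb beyond the H3K4me3 region, and E7.2 replicate 1 listed none. The call at the start was lost with lists of equal length, where no E6.0-specific region lay within 50 kb of the Wnt3a start and 1 E7.2-specific region lay within 20 kb. Because this is the only placed start of the marker list that a stage-specific region covered at full length, the 250 bases upstream of Wnt3a are shown. They are from RefSeq on GRCm38.p6 (chr11:59290752-59291001, minus strand). Capitals mark GC boxes (GGGCGG on either strand), the motif that Sp and Klf factors bind.

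Wnt3a promoter: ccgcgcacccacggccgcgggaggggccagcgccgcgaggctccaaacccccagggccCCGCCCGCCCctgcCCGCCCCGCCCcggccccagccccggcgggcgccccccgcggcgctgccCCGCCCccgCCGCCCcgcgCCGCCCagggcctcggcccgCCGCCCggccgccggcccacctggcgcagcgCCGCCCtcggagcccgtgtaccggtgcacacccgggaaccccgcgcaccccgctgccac

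The window held 9 GC boxes, with 2 overlaps between neighbouring ones, and its GC content was 87.6%. Of 32851 RefSeq promoter windows of this length, 32.7% held a GC box and 0.0731% held 9 or more. Neither CTTTGAT nor CTTTGTT, letters of the Tcf/Lef motif searched on both strands, occurred in it, while 8.06% of the windows held one. These are matches of letters and were not tested for binding.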

How the data were processed

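The 4 embryo ATAC-seq libraries and the lists set beside them were each analysed from 1 deposited list of peaks (mm9). For ATAC-seq, the submitters' processing notes name MACS2 2.1.0, Bowtie2 2.1.0, cutadapt 1.8.1 and SAMtools 0.1.19 and give no roles. The authors' peak caller wrote the deposited fold enrichment, a ratio over local background, and the −log10 p and q values. They served only to rank or filter regions within a list and to describe single regions. The deposited score was not used. Background libraries and filters: not given in the sources used here.

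Overlapping peaks of the 4 embryo lists were merged into regions, and a list was taken to hold a region when they shared at least 1 bp. Equal-length lists kept the strongest 33881 regions by −log10 p. Shares have 95% Wilson intervals, which cover counting error only. Values per library were compared with an exact two-sided permutation test and Benjamini-Hochberg adjustment over 14 measures, 8 of them (regions of 1 library only) added after the first values had been seen, as were the comparisons within folders and the GC box. Merging and counting were tested on simulated lists (Python 3.11.15, pandas 2.3.3, scipy 1.17.1).

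Since no mm9 annotation was used here, gene starts were placed from knowledge of the genome and kept when the spacing of neighbouring starts in the RefSeq gene table of GRCm38, laid on the H3K4me3 regions, fitted best within 5 kb of the placed start in a scan of 300 kb to each side, with at least 3 matches. Kdr, Gata4 and Sox17 were not placed. Kept starts were moved to the best-fitting offset of the scan, by 3250 bp for Pou3f1 and by -3750 bp for Tfap2c. Distances to a start are therefore approximate. Named regions were the 5 of each day with the lowest mean rank that overlapped no input region, named tiles the 5 with the largest excess (ties by number of regions, then by chromosome and position), and named genes all placed markers. A further locus that was looked up is not reported here.

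Groups were taken from the labels. Members, marker lists and tests were chosen with earlier results of these data known. The alternatives were equal length by −log10 p or by fold, a −log10 q of at least 5, merging within 1 kb, a minimum overlap of 50% of the smaller region, leaving out each library, the replicate block, the H3K4me3 list at 72 h, 100 kb tiles and 20 kb windows.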

Additional observations from a re-analysis of the deposited data

How the results depend on the processing

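The direction of the E7.5 posterior and EpiSC 48 h shares held under all 9 alternatives, and the order of the H3K4me3 and EpiSC 0 h shares did not. Lists cut to equal length by fold enrichment gave 2781 E6.0-specific and 1963 E7.2-specific regions, with shares of 3.09% and 6.06% in H3K4me3, 10.0% and 58.8% at E7.5 posterior, 33.3% and 33.8% in EpiSCs at 0 h, and 14.1% and 50.8% at 48 h. By −log10 p the corresponding values were 2681 and 2015, 3.77% and 4.86%, 10.1% and 58.5%, 34.8% and 32.3%, and 15.7% and 49.1%. The H3K4me3 share of E6.0-specific regions was 1.48% with an overlap of 50% of the smaller region and 0.725% with merging within 1 kb (0.303% for E7.2), and their E7.5 posterior share was 2.62% with a −log10 q of at least 5 and 2.60% with merging. Leaving out each library in turn gave 5914 to 16565 E6.0-specific and 1727 to 20602 E7.2-specific regions. The E6.0-specific shares then ran from 1.79% to 5.95% (H3K4me3), 2.53% to 17.8% (E7.5 posterior), 13.0% to 36.1% (EpiSC 0 h) and 5.73% to 22.3% (EpiSC 48 h), and the E7.2-specific shares from 0.926% to 3.10%, 21.9% to 41.8%, 11.2% to 29.9% and 18.1% to 42.8%. With fewer libraries the rule is looser, so more regions meet it. Over whole lists, the E7.2 minus E6.0 difference ran from -25870 to 12682 regions, -75 to -42 bp in median length, and, in percentage points, -3.88 to 18.8 (H3K4me3), 0.151 to 27.1 (E7.5 posterior), -5.71 to 20.4 (EpiSC 0 h) and -1.30 to 24.3 (EpiSC 48 h). The labels do not say that replicate numbers pair the libraries. At equal length 76.5% of the regions of E7.2 replicate 1 were found in E6.0 replicate 1 and 79.4% in E6.0 replicate 2. With the replicate block the mean differences were the unpaired ones, for example 13.6 percentage points for E7.5 posterior (exact sign-flip p = 0.5, the smallest that 2 pairs allow). Replicate block 2 alone reversed list length (10500 regions) and the whole-list differences for H3K4me3 (-3.14), EpiSC 0 h (-5.22) and EpiSC 48 h (-0.691). In 100 kb tiles 4718 held an E6.0-specific region. Near the marker genes 14 E6.0-specific and 1 E7.2-specific region lay within 20 kb, and 16 and 8 within 50 kb at equal length. The causes were not tested. List length limits every count, since depth is unknown and absence from a list is not absence of open chromatin.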

Other observations

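At the early end of the HoxB cluster, E7.2-specific regions lay outside the genes. Hoxb1, the first gene of the cluster to be switched on in the posterior embryo, was looked up after the first results had been seen. Within 50 kb of its start lay 2 E7.2-specific regions, both on the flank beyond the cluster: chr11:96261315-96261606 (mm9), 34.2 kb above the start, with 3.80-fold and 7.79-fold enrichment in replicates 1 and 2, and chr11:96268730-96269309, 41.8 kb above the start, with 4.28-fold and 4.32-fold enrichment. Both were listed in the E7.5 posterior library and in EpiSCs after 48 h of CHIR99021, and neither in EpiSCs at 0 h. At equal length, 2 E7.2-specific regions again lay within those 50 kb. On the other side, 11.3 kb below the start, 1 E6.0-specific region was listed, in none of those lists. The E7.2-specific share of the 20 regions near Hoxb1 was not tested, and the background share is 1.17%.

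Inside the HoxB, HoxC and HoxD clusters E6.0-specific regions outnumbered E7.2-specific ones at full list length, as in the genome as a whole. E6.0-specific were 2 of 26 regions in HoxB, 2 of 21 in HoxC and 2 of 24 in HoxD, and 1 region, in HoxC, was E7.2-specific. At equal length the excess was gone, with 1 region of each class in the 3 clusters. That region, chr15:102865555-102865976, was again listed at E7.5 posterior and in EpiSCs at 48 h and not at 0 h. The cluster windows, too, were looked up after the first results had been seen.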
